A study of Mus musculus with 6 samples.

Results

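The genes described here encode the proteins of the cytosolic ribosome. They were chosen by symbol alone: Rps or Rpl followed by a number, Rplp followed by a number, each with an optional paralog suffix (a, x, l, al or l1), or Rpsa, with the pseudogenes whose symbols carry a -ps suffix left out. This rule took 85 of the 46603 genes in the count files, 33 of them named for the small (40S) subunit and 52 for the large (60S) subunit. Of the 85 genes, 76 were standard subunit genes, 8 were counted as paralogs (Rpl3l, Rpl7l1, Rpl10l, Rpl22l1, Rpl36al, Rpl39l, Rps4l and Rps27l) and Rps12l1 was a copy of Rps12. The label did not hold for every gene, since the annotation (GENCODE M21, GRCm38) gave 83 of the 85 as protein coding, Rps4l as a transcribed processed pseudogene and Rps12l1 as a processed pseudogene.

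RNA was sequenced from enteric glial cells (EGCs), which support the neurons of the gut wall, obtained from neurospheres of embryonic C57BL/6J gut. The 3 control cultures received no stimulus. The 3 LPS cultures received lipopolysaccharide, a component of the outer wall of Gram-negative bacteria, at 100 ng/ml for 12 hours. No other treatment, transgene or allele was named for either group, and as nothing in the labels stated that the cultures came from separate litters, p-values measured only the spread between these cultures. The libraries held 18775316 to 23664312 counts each, and 82 of the 85 ribosomal protein genes passed the filter on low counts.

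Each ribosome carries a single copy of most of these proteins, and most of their genes are expressed in every cell. Most ribosomal protein mRNAs begin with a run of pyrimidines, the 5′ terminal oligopyrimidine (TOP) motif, through which the mTORC1 kinase and the RNA-binding protein LARP1 set how well they are translated. Several ribosomal proteins have a second gene with a closely related product, such as the muscle gene Rpl3l and the testis genes Rpl10l and Rpl39l. The set also bears on how expression is measured: the study used Rpl32 as the reference gene of its PCR, and a tagged Rpl22 to pull down the ribosomes of glia in mice.

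The pyrimidine run was looked for in the reference sequence, which the symbol rule did not use. The 15 bases before and the 15 bases from each transcription start are printed for 12 genes, 5′ to 3′ on the gene's own strand (RefSeq promoters, GRCm38.p6). The first 4 are genes with a change or a near change upon LPS described below, and the others are named below for their function. Rps4l and Rpl3 had no entry. Capitals mark the longest run of C and T in each window.

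Rpl36al, chr12:69184053-69184082, minus strand: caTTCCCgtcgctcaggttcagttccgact

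Rpl7l1, chr17:46782642-46782671, minus strand: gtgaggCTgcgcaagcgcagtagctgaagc

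Rpl10a, chr17:28328456-28328485, plus strand: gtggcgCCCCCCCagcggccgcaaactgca

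Rpl10a, chr17:28328550-28328579, plus strand: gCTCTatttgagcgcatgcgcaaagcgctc

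Rpl22l1, chr3:28805493-28805522, plus strand: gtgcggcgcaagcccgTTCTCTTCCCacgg

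Rplp0, chr5:115559452-115559481, plus strand: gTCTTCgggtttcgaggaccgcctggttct

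Rplp2, chr7:141447636-141447665, plus strand: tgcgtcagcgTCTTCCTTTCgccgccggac

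Rpl5, chr5:107900513-107900542, plus strand: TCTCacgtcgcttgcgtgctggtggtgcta

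Rpl11, chr4:136053379-136053408, minus strand: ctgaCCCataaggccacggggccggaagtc

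Rpl13a, chr7:45128731-45128760, minus strand: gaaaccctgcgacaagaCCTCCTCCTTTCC

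Rpl22, chr4:152324421-152324450, plus strand: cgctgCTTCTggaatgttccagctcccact

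Rpl22, chr4:152325711-152325740, plus strand: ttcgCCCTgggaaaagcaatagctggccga

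Rpl38, chr11:114668565-114668594, plus strand: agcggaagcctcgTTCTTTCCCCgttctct

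Rps6, chr4:86857353-86857382, minus strand: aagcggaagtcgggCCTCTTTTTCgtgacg

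The run differed widely among these genes. It spanned 13 bases in Rpl13a and 10 bases in Rpl22l1, Rplp2, Rpl38 and Rps6, against 5 in Rpl36al and Rplp0, 4 in Rpl5, 3 in Rpl11 and 2 in Rpl7l1. Rpl10a has 7 and 4 bases at its start sites and Rpl22 has 5 and 4. The run was taken anywhere in the window and was cut at the window's edges, which it touched in Rpl13a and Rpl5. In Rpl36al, Rpl7l1, Rpl10a, Rplp0, Rpl5, Rpl11 and Rpl22 it lay wholly before the annotated start, outside the annotated mRNA. The median run was 6 bases over the ribosomal protein start sites and 4 over all RefSeq start sites. RefSeq promoters were found for 63 of the 85 genes, with 75 start sites in all. A run of at least 8 pyrimidines lay in the window of 37.3% of these start sites and in that of 12% of all 32851 RefSeq start sites of the same length. A run of at least 10 lay in 26.7% against 5.34%. Over the whole promoter of 300 bases, searched on both strands, CCGGAAG (bound by ETS factors) was present in 34.7% of the ribosomal protein promoters and in 8.86% of all promoters, and AAGATGG (bound by YY1) in 16% against 6.34%. The TATA box letters TATAAA were present in 9.33% against 13.6%, and the E-box CACGTG in 10.7% against 7.15%. These are matches of letters, and binding was not measured.

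The ribosomal protein genes took a small share of each library, and that share was lower in the LPS cultures. Together they held 2.52%, 2.59% and 2.27% of the counts in control cultures 1, 2 and 3, and 2.23%, 2.23% and 1.85% in LPS cultures 1, 2 and 3. Each LPS library lay below each control library. The mean share was 2.46% ± 0.168 (SD, n = 3) in controls and 2.10% ± 0.218 upon LPS, a ratio of 0.855, and the exact 95% binomial interval of the share in control 2, 2.58% to 2.60%, covered counting error only. The ratio was closer to 1 once libraries were scaled by TMM factors, which set the bulk of the genes level between libraries. The summed level was then 23290, 24390 and 22180 CPM (counts per 1e6 scaled counts) in the controls and 23000, 23310 and 20170 CPM upon LPS, a ratio of 0.952. The groups overlapped, but in each of the 3 pairs of cultures with the same number the LPS culture had the lower sum. The TMM factors were 1.02 to 1.08 in the controls and 0.918 to 0.969 upon LPS, so the scaling itself separated the groups.

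Replicate 3 was the lowest library of each group on both scales. The summed CPM of 6 macrophage markers (Lyz2, Adgre1, Csf1r, Cd68, Ptprc and Mrc1) was highest in the same 2 cultures, which held 10580 CPM (control 3) and 16890 CPM (LPS 3), against 3648 to 4762 CPM in the other libraries. Lyz2 made up most of this sum, and the markers did not all move together: Adgre1 rose upon LPS, from 159, 229 and 472 CPM to 952, 1261 and 3700 CPM, while Mrc1 was at 197, 331 and 752.5 CPM in the controls and 9.29, 10.4 and 131 CPM upon LPS and was not called (adjusted p = 0.146, edgeR). All 6 markers had counts in every library, with Lyz2 at 2385 to 11480 CPM, the highest values again in replicate 3. In bulk RNA, fewer cells of a type and less RNA per cell cannot be told apart. Glial markers were present, with Sox10 at 73.8 to 101 CPM, but Gfap was low at 2.23 to 7.22 CPM, and S100b fell, from 20.5 to 24.7 CPM in the controls to 3.46 to 9.37 CPM upon LPS (adjusted p = 0.0238, edgeR). The mesenchymal gene Col1a1 stood at 5445 to 6269 CPM and was not called, whereas Dcn and Pdgfra, markers of the same list, rose by 0.90 and 0.50 on the log2 scale. Col3a1, the remaining gene of that list, was at 3617 to 4921 CPM in the controls and 3563 to 3705 CPM upon LPS, with a log2 fold change of -0.28, and was not called. The 4 epithelial markers summed to 1.24 to 2.85 CPM. All 4 smooth muscle markers fell upon LPS, their sum ranging from 1355 to 1565 CPM in controls and from 284 to 462 CPM upon LPS, with the lowest value of each group in replicate 3. The sum of 4 neuron markers (Elavl4, Tubb3, Uchl1 and Ret) was also lowest there, at 357, 354 and 211 CPM in the controls and 342, 358 and 231 CPM upon LPS. The sum of 4 markers of cycling cells (Mki67, Top2a, Ccnb1 and Mcm5) was 192, 231 and 421 CPM in the controls and 179, 150.0 and 124 CPM upon LPS. Each LPS library lay below each control library, as for the ribosomal protein share, but control 3, which had the lowest share of the controls, had the highest cycling sum, and none of the 4 genes was called. The part of the macrophage, smooth muscle, neuron and cycling markers in the ribosomal protein levels was not tested.

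**Figure D1:**
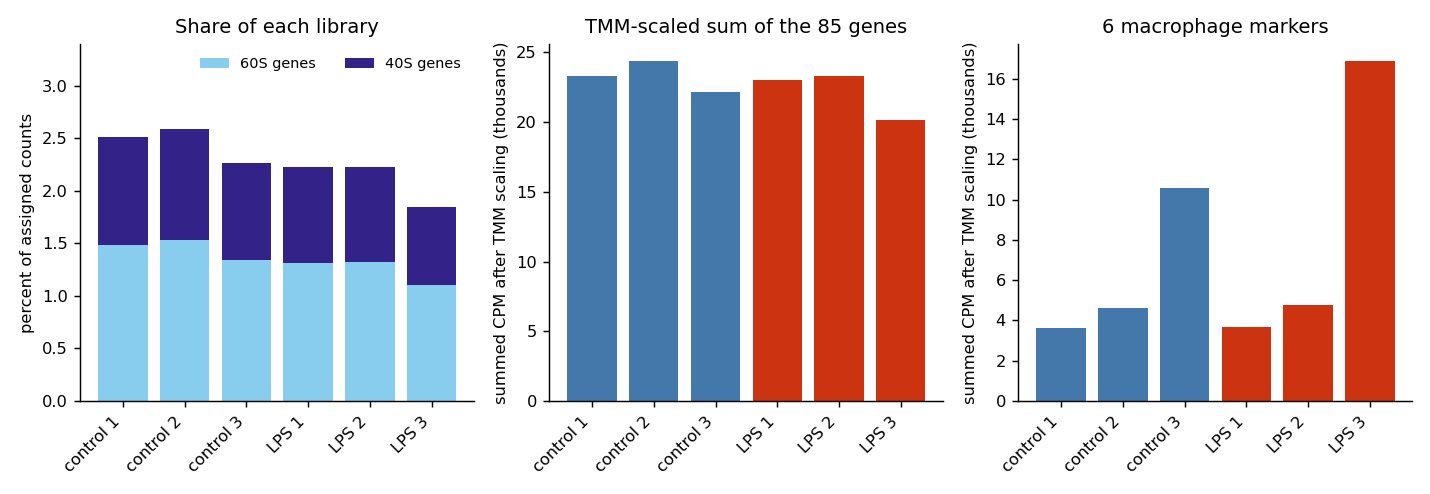
Left, percent of assigned counts taken by the 60S (light) and 40S (dark) ribosomal protein genes in each library. Middle and right, the TMM-scaled CPM sums of the 85 genes and of 6 macrophage markers in the same libraries (control blue, LPS red). The ribosomal share was lowest in LPS 3, at 1.85%, where the macrophage sum was highest, at 16890 CPM.

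Few ribosomal protein genes changed upon LPS. In edgeR's quasi-likelihood test with Benjamini-Hochberg adjustment over all 15226 tested genes, 3 of the 82 tested members rose and 2 fell at an adjusted p under 0.05, and 77 did not pass. Over all tested genes, 9.09% rose and 6.71% fell. The genes that rose were Rps4l, Rpl7l1 and Rpl36al, and those that fell were Rpl10a and Rpl3. The median log2 fold change of the members was -0.07, beside -0.02 for all tested genes, and 61 of 82 members (74.4%) lay below 0, against 52% of all tested genes. Counted by libraries, 3 members had all LPS values above all control values and 11 had all LPS values below, where 19.3% and 19.4% of all tested genes did so. Leaving out a library changed these counts: no member was called without control 1, control 2, LPS 1 or LPS 2, where the share of all tested genes called also fell, to 2.44% to 3.98% higher and 0.72% to 1.44% lower. Of the members, 2 rose and none fell without control 3 (Rpl36al and Rpl7l1), against 7.52% and 6.66% of all tested genes, and 2 rose and 2 fell without LPS 3 (Rpl36al, Rpl7l1, Rpl10a and Rpl3), against 12.6% and 9.13%. Without LPS 3 the median was -0.01 for the members and -0.04 for all tested genes, so the order of these medians turned.

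The ribosomal protein genes were measured closely enough to bound most of their changes. The median standard error of the log2 fold change was 0.098 for the members and 0.181 for all tested genes. The 95% interval lay within 0.5 log2 units of no change for 74 of the 82 members (90.2%), against 29.2% of all tested genes, and within 1 log2 unit for 81 (98.8%), against 59.7%. These bounds are relative to the TMM scale. The values also followed the culture: 69 of 82 (84.1%) had their lowest LPS value in replicate 3 and 61 (74.4%) their lowest control value there, against 42.5% and 43.3% of all tested genes.

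**Figure D2:**
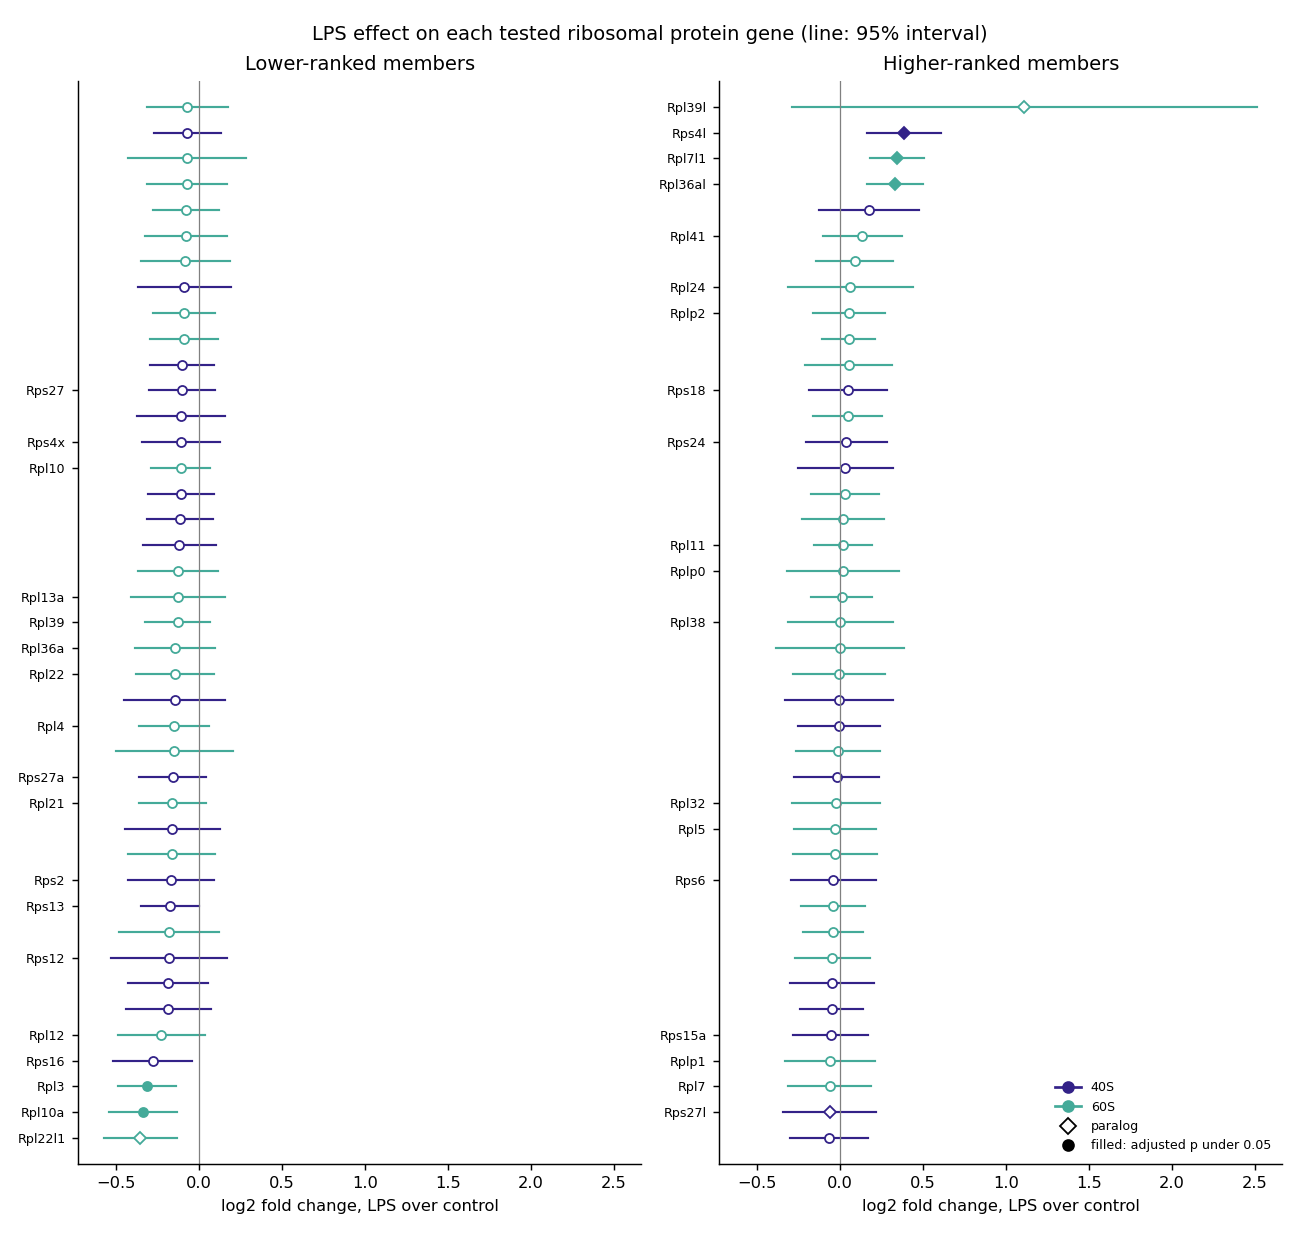
Log2 fold change of LPS over control (x axis) for each of the 82 tested ribosomal protein genes, ranked and divided over a pair of panels, with 95% intervals as lines. Some of the genes described in the text are labelled. Filled symbols mark the 5 genes at an adjusted p under 0.05, diamonds mark paralogs, and colour gives the subunit. Apart from Rpl39l, which was barely expressed, the estimates lay between -0.35 and 0.38.

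The calls depended on how libraries were scaled. With library totals alone as the scale, the median of all tested genes moved from -0.02 to -0.18 and that of the members from -0.07 to -0.22, so the distance between the medians stayed at -0.05. On that scale no member rose and 5 fell (Rpl3, Rpl10a, Rpl22l1, Rps13 and Rps16), where 6.48% of all tested genes rose and 13.5% fell. A fit with the replicate number as a block gave 3 members higher and 3 lower, where 15.4% and 14.9% of all tested genes were called. With both cultures numbered 3 left out, a choice made after seeing the data, 5 of 81 tested members rose and 3 fell, where 22.6% and 20.4% of all tested genes were called. Rpl41 was among the genes added to those that rose, and Rpl22l1 was added to those that fell.

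The genes that rose were all paralogs. Of the 6 paralogs that were tested, 3 rose and none fell, and their median log2 fold change was 0.34. Of the 76 tested standard genes, none rose and 2 fell, with a median of -0.07. The shares over all tested genes were 9.09% higher and 6.71% lower. Of the standard genes, 4 reached an unadjusted p under 0.05, and none was called higher by DESeq2 or limma-voom. The summed level of the 8 paralogs was 299 to 311 CPM in the controls and 315 to 333 CPM upon LPS. These sums did not overlap between groups, while the sums of the standard genes, 21880 to 24080 CPM in the controls and 19850 to 22980 CPM upon LPS, did. This was not so without the TMM factors, and other scalings were not run for these sums. As a share of all counts, the paralogs took 0.0324%, 0.033% and 0.0306% in the controls and 0.0323%, 0.0316% and 0.0289% upon LPS, which overlapped and were not higher upon LPS, while the standard genes took 2.24% to 2.56% and 1.82% to 2.2%, without overlap.

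Rpl7l1 (chr17:46773907-46782672, minus strand) encodes a relative of the 60S protein Rpl7. Its level was 79.6, 80.2 and 83.9 CPM in the control cultures and 104, 98.5 and 107 CPM in the LPS cultures. Each LPS culture was above each control, and LPS 3, the lowest library for most members, was the highest for this gene. The log2 fold change was 0.34 ± 0.07 (SE, n = 3), with an adjusted p of 0.0245 in edgeR's quasi-likelihood test. Of the 50-base words of its mRNA, 9.03% also occurred in another annotated gene. With library totals alone the log2 fold change was 0.19 (adjusted p = 0.0836, edgeR) and the call was lost.

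Rpl36al (chr12:69182731-69184083, minus strand) encodes a near copy of Rpl36a, a protein at the exit site of the 60S subunit. Its level was 49.8, 50.6 and 54.6 CPM in the controls and 66.3, 64.8 and 63.7 CPM upon LPS. The groups did not overlap, and the 3 LPS cultures lay close together. The log2 fold change was 0.33 ± 0.07 (SE), with an adjusted p of 0.0294 in the same test. Shared words made up 42.5% of its mRNA, and the overlapping gene model Gm49383 of the annotation was not among the genes of the count files. With library totals alone the log2 fold change was 0.18 (adjusted p = 0.12, edgeR) and with upper-quartile factors 0.23 (adjusted p = 0.0777), and the call was lost on both scales.

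Rps4l (chr6:148354656-148355598, plus strand) is the transcribed copy of the X-linked gene Rps4x that the annotation gives as a pseudogene. It was far lower than Rps4x, at 16.0, 17.6 and 16.9 CPM in the controls and 20.8, 22.3 and 22.9 CPM upon LPS. Again no LPS culture fell within the control range. The log2 fold change was 0.38 ± 0.09 (SE), with an adjusted p of 0.0405 in edgeR's quasi-likelihood test. With library totals alone the log2 fold change was 0.23 (adjusted p = 0.114, edgeR) and with upper-quartile factors 0.28 (adjusted p = 0.0754), and this call was lost on both scales too.

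Rpl22l1 (chr3:28805436-28807424, plus strand), the paralog of Rpl22, went the other way. Its level was 60.2, 65.0 and 63.6 CPM in the controls and 48.8, 54.1 and 44.96 CPM upon LPS. The groups did not overlap, but the log2 fold change of -0.35 ± 0.09 (SE) stood just outside the threshold, with an adjusted p of 0.0502 in edgeR's quasi-likelihood test. In the fit with the replicate block the adjusted p was 0.0269 and Rpl22l1 was called lower.

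The other paralogs were not called. Rps27l, a gene known to be induced by p53, stood at 90.3 ± 9.19 CPM (SD) in controls and 86.5 ± 8.81 CPM upon LPS, with a 95% interval of its log2 fold change from -0.35 to 0.22. Rpl39l was barely expressed, at 0.323 ± 0.182 CPM in controls and 0.712 ± 0.333 CPM upon LPS, and its interval, from -0.29 to 2.51, left the size of any change undetermined at this depth. Rpl3l had 0, 0 and 0 counts in the controls and 1, 1 and 0 upon LPS. Rpl10l had no count in any of the 6 libraries, and the pseudogene copy Rps12l1 had 0 to 3 counts. A count of 0 allows at most 3 counts, or 0.124 to 0.167 CPM in these libraries.

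**Figure D3:**
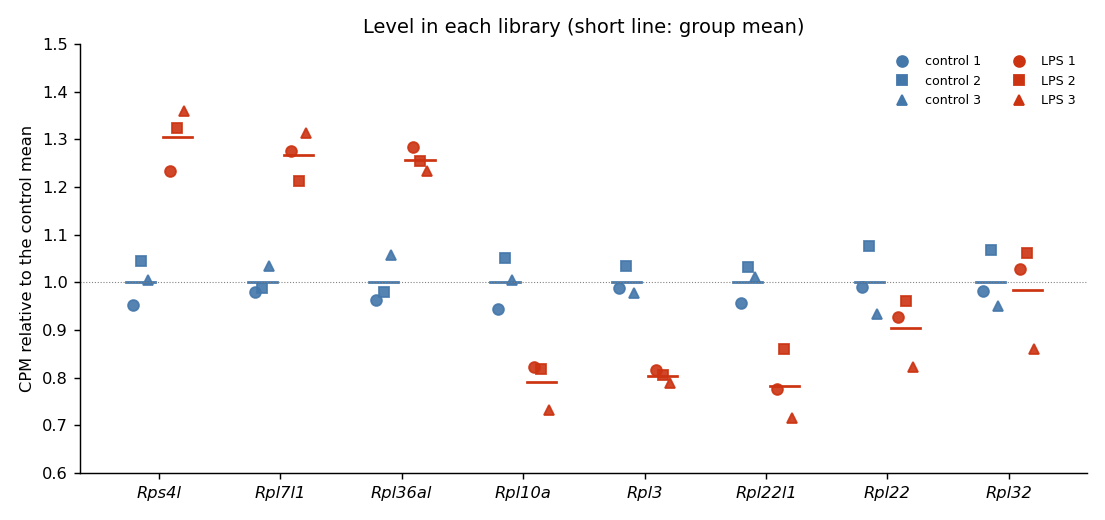
CPM of 8 ribosomal protein genes in each library, divided by the gene's control mean (y axis). Control cultures are blue and LPS cultures red, the symbol gives the replicate number, and short lines are group means. The LPS values of Rps4l, Rpl7l1 and Rpl36al lay above all control values, those of Rpl10a, Rpl3 and Rpl22l1 below, and those of Rpl22 and Rpl32 overlapped with the controls.

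Set against the gene they resemble, the paralogs shifted in both directions. These ratios come from a single library each and do not depend on the scaling between libraries. Rpl36al stood at 46.6%, 42.3% and 54.6% of the Rpl36a level in the controls and at 67%, 61.4% and 69.7% upon LPS. Rpl7l1 stood at 15.6%, 15.4% and 17.7% of the Rpl7 level in the controls and at 20.3%, 19.6% and 25.1% upon LPS. Rps4l stood at 2.99%, 3.12% and 3.198% of the Rps4x level and at 3.95%, 4.18% and 5.10% upon LPS. In these 3 pairs each LPS culture lay above each control culture.

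Rpl22l1 stood at 31.6%, 31.4% and 35.5% of the Rpl22 level in the controls and at 27.4%, 29.3% and 28.4% upon LPS, with no overlap in the opposite direction. Rps27l to Rps27, at 55.7% ± 5.46 (SD, n = 3) and 57.4% ± 4.39, overlapped between groups, as did Rpl39l to Rpl39, at 0.25% ± 0.15 and 0.581% ± 0.239. The levels are not divided by gene length, so a ratio compares the same pair between libraries and gives no ratio of molecules. The parent genes themselves were not called: the log2 fold changes were -0.06 for Rpl7, -0.14 for Rpl36a, -0.11 for Rps4x, -0.15 for Rpl22, -0.10 for Rps27 and -0.13 for Rpl39. The same holds for Rpl10, at -0.11, whereas Rpl3 fell.

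**Figure D4:**
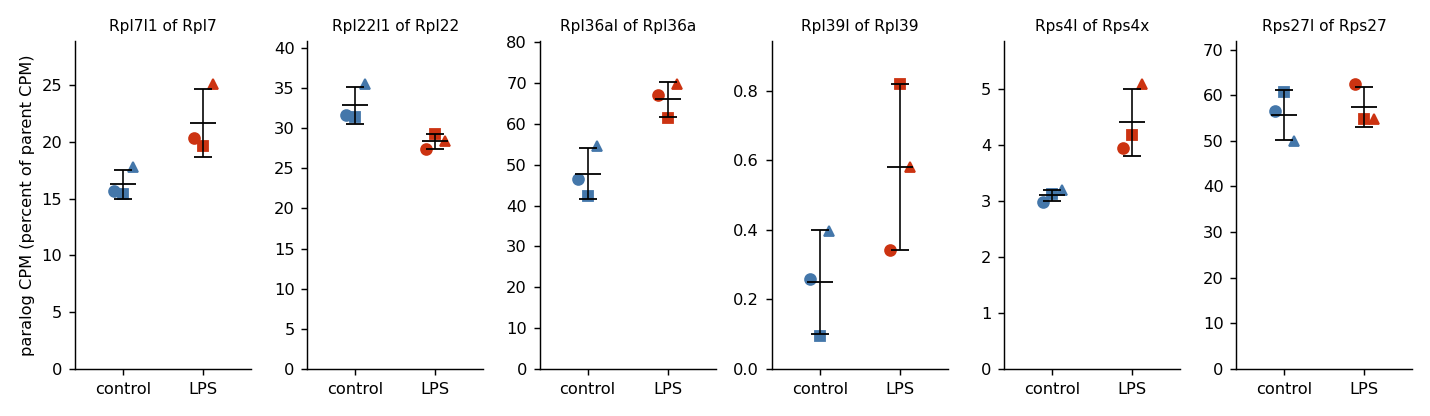
CPM of each of 6 paralogs as a percent of the CPM of the gene it resembles (y axis, starting at 0, one panel a pair), in 3 control and 3 LPS cultures. Bars give mean and SD and the symbol gives the replicate number. Rpl36al rose from a mean of 47.8% to 66% of Rpl36a, while Rpl22l1 went from 32.8% to 28.4% of Rpl22.

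Both standard genes that fell belong to the 60S subunit. Rpl3 (chr15:80077791-80091868, minus strand), whose product reaches towards the peptidyl transferase centre, was at 502, 526 and 497 CPM in the controls and at 415, 409 and 400.4 CPM upon LPS. The LPS cultures lay well below the controls and close together. Its log2 fold change was -0.32 ± 0.07 (SE), with an adjusted p of 0.0368 in edgeR's quasi-likelihood test. Rpl10a (chr17:28328471-28331033, plus strand), the protein of the mobile L1 stalk beside the exit site, was at 188, 209 and 199.8 CPM in the controls and at 163, 163 and 145 CPM upon LPS. The log2 fold change was -0.34 ± 0.08 (SE), with an adjusted p of 0.0456. With RLE factors it was -0.32 (adjusted p = 0.0514, edgeR), and the call of Rpl10a was lost. Both genes have many copies in the genome: shared words made up 85.6% of the Rpl3 mRNA and 88.1% of the Rpl10a mRNA.

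The 3 genes that rose all had at most 50% shared words and the 2 that fell had more. Among the 43 tested members with more than 50% shared words none rose and 2 fell, and among the 39 others 3 rose and none fell. These counts stand beside 9.09% higher and 6.71% lower over all tested genes, and the difference between the groups was not tested. The medians of these groups of genes were alike, at -0.06 and -0.07. How reads that match several genes were counted was not stated, and its part in these changes was not tested. The 261 pseudogenes of ribosomal proteins with a -ps symbol took 0.0105% ± 0.00055 (SD) of the counts in the controls and 0.0116% ± 0.0024 upon LPS, and of the 30 that passed the filter none was called in edgeR's quasi-likelihood test, with 3 at an unadjusted p under 0.05.

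The 40S and 60S genes kept their balance within a narrow range. The ratio of 60S to 40S counts was 1.449, 1.443 and 1.440 in the controls and 1.451, 1.459 and 1.472 upon LPS. All LPS values lay above all control values, but the means, 1.444 ± 0.0046 (SD) and 1.461 ± 0.0106, differed by a factor of only 1.01. The median log2 fold change was -0.09 for the 32 tested 40S genes and -0.05 for the 50 tested 60S genes. Of the 40S genes 27 lay below 0 and of the 60S genes 34, and the difference between the subunits was not tested.

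Among the 40S genes, Rps4l was the only call. Rps16 had the lowest estimate, at 185, 203 and 194 CPM in the controls and 178, 157 and 145 CPM upon LPS, with no overlap and a log2 fold change of -0.28 (adjusted p = 0.111, edgeR). Rps13 and Rps27a, whose product is made as a fusion with ubiquitin, also showed no overlap, at -0.18 and -0.16, and neither was called. Rps6, the substrate of the S6 kinases below mTORC1, was at 180.5 ± 9.59 CPM (SD) and 176 ± 19.7 CPM, with a 95% interval of its log2 fold change from -0.30 to 0.22.

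Among the 60S genes, the proteins of the stalk that binds translation factors were close to level. Rplp0 stood at 904 ± 70.8 CPM (SD, n = 3) in controls and 914 ± 133 CPM upon LPS, Rplp1 at 595 ± 28.5 and 570.5 ± 65.3 CPM, and Rplp2 at 279 ± 9.44 and 289.8 ± 23.8 CPM. The 95% intervals ran from -0.32 to 0.35, from -0.33 to 0.21 and from -0.16 to 0.27 on the log2 scale. For all 3, the lowest value of the LPS group was that of LPS 3.

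Rpl5 and Rpl11, which bind the 5S rRNA and, when free of the ribosome, the p53 ligase Mdm2, had log2 fold changes of -0.03 and 0.02. Rpl11 was at 213 ± 9.15 CPM (SD) and 216 ± 6.11 CPM. Rpl13a, a subunit of the GAIT complex that represses translation of inflammatory mRNAs in myeloid cells, was at 612 ± 59.7 and 560.5 ± 50.4 CPM. Rpl38, linked to the translation of Hox mRNAs, had an estimate of 0.00 with a 95% interval from -0.31 to 0.32. Rpl12, at the base of the stalk, was at 404, 454 and 413 CPM in the controls and 368, 398 and 321 CPM upon LPS, with no overlap and an adjusted p of 0.21. Rpl4 and Rpl21 also showed no overlap, at -0.15 and -0.16, and were not called.

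The PCR reference gene of the study, Rpl32 (chr6:115805505-115808747, minus strand), had an estimate near 0. Its level was 303, 329 and 293 CPM in the controls and 317, 328 and 265 CPM upon LPS. The groups overlapped, and the log2 fold change was -0.02 with a 95% interval from -0.29 to 0.24 (adjusted p = 0.904, edgeR). Rpl22, the protein tagged in the mice, stood at 190.2, 207 and 179 CPM in the controls and 178, 185 and 158 CPM upon LPS, with a log2 fold change of -0.15, an interval from -0.38 to 0.09 and an adjusted p of 0.35.

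Of 15 genes in common use as PCR references, of which Rpl32, Rpl13a, Rplp0 and Rps18 are members, 3 rose and none fell. Of all tested genes 9.09% rose and 6.71% fell. B2m, a part of MHC class I, rose by 2.39 on the log2 scale, the glycolytic gene Pgk1 by 1.63 and the glycolytic gene Gapdh by 1.09. The log2 fold changes of the 4 ribosomal references lay between -0.13 and 0.05 on the TMM scale and none was called. Over the alternative settings they ran from -0.18 to 0.06 for Rpl32, from -0.28 to -0.06 for Rpl13a and from -0.14 to 0.13 for Rplp0. Actb had an estimate of 0.28 with an interval from -0.55 to 1.11, and its LPS values of 2009, 2182 and 4473 CPM set LPS 3 apart.

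Compared per length of the mature mRNA, levels ranged widely across the set, although the proteins enter the ribosome in near-equal numbers. In the control cultures, Rplp1 was highest at 1192 ± 57.1 CPM per kilobase (SD, n = 3), followed by Rps24 at 870.5 ± 50.8, Rpl13a at 794 ± 77.4, Rps12 at 757 ± 78.4 and Rps2 at 716 ± 35.2. Rplp1 lay above the next gene by more than the spread between cultures, whereas Rpl13a, Rps12 and Rps2 were within each other's spread. Divided by all exon bases instead, Rplp1 stayed at 1192, but Rps24 stood at 73.05, Rpl13a at 289, Rps12 at 184 and Rps2 at 390.5. Rplp0 stood at 545 on that scale, so the places after Rplp1 depended on the length used. The highest place of Rplp1, of which each ribosome carries 2 copies, held upon LPS, at 1143 CPM per kilobase.

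The lowest tested members per kilobase were Rpl39l at 0.476 ± 0.269, Rpl24 at 13.0 ± 0.588, Rps4l at 19.4 ± 0.902, Rpl7l1 at 41.5 ± 1.2 and Rps15a at 50.7 ± 2.91. Of these, 3 are paralogs. Rpl24 is a standard gene of every 60S subunit, and it had 8.82 CPM. The gene model Gm28037 overlaps it on the same strand and was itself listed at 0 counts in each of the 6 libraries, and shared words made up 81.7% of its mRNA. The place of Rps15a rests on an annotated mRNA of 5130 bases, against a median of 771 bases for the set. By CPM alone it ranked 40 of 82. These limits apply to levels compared between genes, while a change between cultures compares a gene with itself.

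The ribosomal protein genes lie on 19 chromosomes, with 15 on chromosome 7 and 4 on the X chromosome. Their mRNAs share sequence with other genes to a median of 50.8% of 50-base words. Rpl3l and Rpl39l shared no word with another gene. For 40 members an exon overlaps an exon of another annotated gene, in 28 cases on the same strand, often a small nucleolar RNA.

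The other genes of the translation apparatus were read from the same fit, with the 9.09% higher and 6.71% lower of all tested genes as the background. Of 77 tested mitochondrial ribosomal protein genes, which serve the ribosome inside mitochondria, 6 rose and 1 fell, with a median of 0.08. Mrpl1 rose by 0.64, Mrpl45 by 0.50 and Mrps18b by 0.45 on the log2 scale, and Mrpl34 had a log2 fold change of -0.39. Mrpl1 went from 13.9, 14.7 and 13.3 CPM to 21.6, 22.5 and 21.04 CPM, with no overlap. The cytosolic ribosomal protein genes that the symbol rule does not reach, such as Rps3a1, Fau and Gnb2l1, gave no call in edgeR's quasi-likelihood test, none at an unadjusted p under 0.05, and a median of 0.06.

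Of 32 initiation factor genes 4 rose and none fell. Eif6, which keeps free 60S subunits from joining 40S subunits, rose by 0.84, from 51.9, 55.6 and 64.5 CPM in the controls to 104, 108 and 95.2 CPM upon LPS, and Eif3b, Pabpc1 and Eif2s1 rose by 0.42, 0.36 and 0.29. Of 9 genes of elongation 2 rose and 2 fell. The estimate of Eef2k, the kinase that inhibits elongation factor 2, was -1.05 ± 0.09 (SE) on the log2 scale, with an adjusted p of 0.00193 in edgeR's test, and that of Tpt1 was -0.39, while Eef1e1 and Eif5a rose by 0.53 and 0.35. Eef1e1 is a scaffold of the tRNA synthetase complex and not an elongation factor.

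Of 13 genes that handle stalled or collided ribosomes 3 rose and none fell. Ascc3, a helicase that takes apart collided ribosomes, rose by 1.02 ± 0.07 (SE), Edf1, which binds collided ribosomes, by 0.62, and Zfp598, the ligase that marks 40S proteins at collisions, by 0.50. Of 36 ribosome assembly genes 3 rose (Tsr1 by 0.37, Nop14 by 0.28 and Gnl2 by 0.27) and none fell, and the median, 0.18, was the highest among the lists of at least 9 tested genes. None of 14 RNA polymerase I genes was called in edgeR's quasi-likelihood test, with 2 at an unadjusted p under 0.05. The largest estimates there were 0.53 for Cd3eap and 0.29 for Polr1a.

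Of 15 tested genes of mTORC1 and TOP mRNA control, Ddit4, an inhibitor of mTORC1, rose by 0.66, and Deptor, another inhibitor, had a log2 fold change of -0.84. Of the 6 genes of the 5S RNP and p53 circuit, Trp53, which encodes p53, rose by 0.45, and Mdm2 and Cdkn1a had estimates of 0.56 and 0.49 that were not called. Of the 6 tested snoRNA host genes, which like ribosomal protein genes carry small nucleolar RNAs in their introns, Snhg12 fell, with a log2 fold change of -0.73. In the GAIT complex, Gapdh rose and Rpl13a, Eprs and Syncrip were not called.

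The replicate block added calls in several of these lists and none in those of elongation, the GAIT complex and the snoRNA hosts. In that fit 15.4% of all tested genes were called higher and 14.9% lower. With the block 11 mitochondrial ribosomal protein genes rose and 2 fell, 7 initiation factor genes rose (adding Eif3d, Eif4e and Eif5), and 5 assembly genes rose (adding Bop1 and Pes1) and 1 fell (Nop10). In the same fit 3 RNA polymerase I genes rose (Cd3eap, Polr1a and Polr1c), Mdm2 and Cdkn1a were called higher, and Sesn2 and Zak were called lower. Of the PCR references, Gusb was then called lower.

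The direction of several lists also depended on the scaling. With library totals alone the median became -0.07 for the mitochondrial ribosomal proteins, -0.08 for initiation, -0.03 for RNA polymerase I and -0.03 for ribosome quality control, and stayed above 0, at 0.02, for ribosome assembly, while that of all tested genes was -0.18. On that scale none of the assembly genes rose and 3 fell. Outside the members, 23 genes of these lists rose and 5 fell in the TMM fit, and 8 rose and 16 fell with library totals alone.

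**Figure D5:**
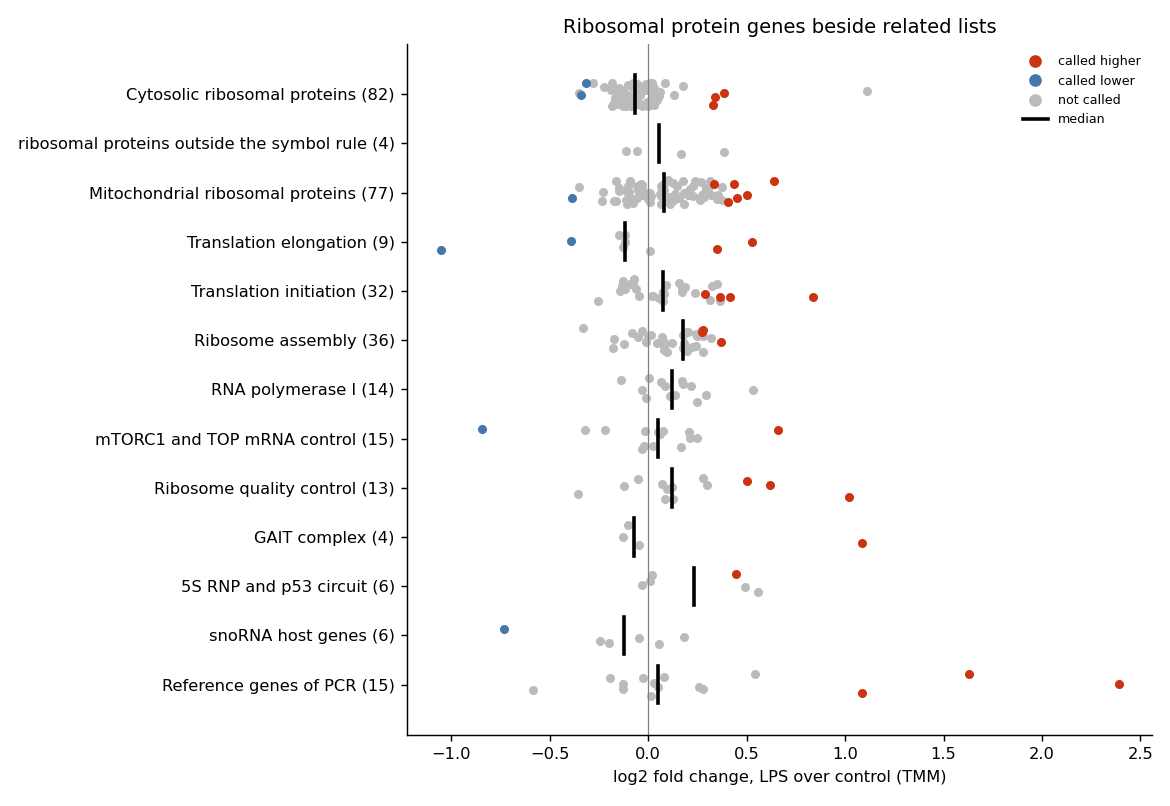
Log2 fold change of LPS over control (x axis, TMM scale) for the 82 tested cytosolic ribosomal protein genes and for the genes of 12 related lists, 1 point a gene, with the number tested in brackets. Red points were called higher, blue points lower and grey points were not called, and black bars are medians. The median of the ribosomal protein genes was -0.07 and that of the assembly genes 0.18.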

How the data were processed

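The authors deposited raw read counts per gene for 3 control and 3 LPS cultures, made from a stranded poly(A) library kit. The submitters' processing notes name cutadapt 1.15, Bowtie2 2.3.3.1, STAR 2.5.2b, SAMtools 1.5, featureCounts 1.5.3 and GRCm38. The strand setting and the handling of reads that match several genes are not given in the sources used here. Counts were tested with edgeR 4.0.16 (quasi-likelihood F-test, two-sided, TMM factors, group as the single term) in R 4.3.3, on genes passing filterByExpr (minimum count 10, minimum total 15), with Benjamini-Hochberg adjustment over all tested genes and a threshold of 0.05. CPM values are counts per 1e6 TMM-scaled counts. Limma 3.58.1 (voom) and DESeq2 1.42.0 were alternatives, as were other scalings, filters, the exact test and leaving out libraries. The script was checked on simulated data.

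Libraries with the same replicate number deviated together over all genes (r = 0.513, 0.334 and 0.613). Each r was over 0.1, and the replicate block took the numbers as pairs. Deviations were taken from each group's mean, so a deviation shared by number 3 alone also raises r among numbers 1 and 2. Numbers 1 and 2 were not told apart by these values (control 1 with LPS 2, r = 0.419, and control 2 with LPS 1, r = 0.323). Over the members the same-number r was -0.0265, -0.558 and 0.437. The blocked fit is given where it changed a call. Lengths, overlaps and 50-base words came from GENCODE M21. The members and lists were chosen with earlier results of these data known. Named members were those called, the 5 highest and 5 lowest changes and levels, the paralogs with their parents, and genes of known roles. Rps13, Rpl4, Rpl21, Rpl41 and Rps18 were named after their values were seen. Some genes that these rules name are not reported here. The series table, identical to the single files, was not used.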

Additional observations from a re-analysis of the deposited data

How the results depend on the processing

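Against 3 ribosomal protein genes higher and 2 lower in the TMM fit, upper-quartile factors gave 1 higher, RLE factors 1 lower (without Rpl10a), library size alone 0 higher and 5 lower, and no filter on low counts and edgeR's exact test 0 and 0 each. Of all tested genes these settings called 6.9% higher and 10.4% lower (upper quartile), 9.44% and 6.48% (RLE), 6.48% and 13.5% (library size), 4.48% and 3.28% (no filter) and 9.39% and 7.99% (exact test). With 1 library left out, or both numbered 3, 0 to 5 were higher and 0 to 3 lower, as 2.44% to 22.6% and 0.72% to 20.4% of all tested genes were. The cause was not tested, though without the filter 24879 genes were tested. DESeq2, limma-voom, TMM factors from the other genes and a minimum of 10 counts in every library gave 3 higher and 2 or 3 lower. Rpl36al, Rpl7l1, Rps4l, Rpl10a, Rpl3 and Rpl22l1 kept their direction in all 17 alternatives. The member median was -0.17 by the upper quartile and -0.22 by library size alone. For the related lists outside the members, 23 genes higher became 10 with upper-quartile factors, 8 with library size alone, 11 without the filter, 44 with DESeq2, 13 with the exact test and 2 to 62 with libraries left out, and 5 lower became 9, 16, 3, 9 and 3 in the same order and 1 to 13. Their median of 0.082 became -0.021, -0.073, 0.063 and 0.098 with upper-quartile factors, library size alone, no filter and DESeq2, 0.098 with RLE factors, and 0.082 to 0.118 with libraries left out. The replicate block pairs cultures of the same number and gave 39 higher and 10 lower in these lists. Among the members it gave 3 higher and 3 lower, adding Rpl22l1, and changed no other call. The ratio of the members' share between groups, 0.855, was 0.823 to 0.906 with libraries left out, and for the -ps pseudogenes it was 1.10. In uncalled genes near 0 the sign turned: by upper-quartile factors, then library size alone, Rpl11 was at -0.087 and -0.139, Rpl24 at -0.038 and -0.091, Rpl38 at -0.098 and -0.151, Rplp0 at -0.084 and -0.137, Rplp2 at -0.047 and -0.0997 and Rps24 at -0.065 and -0.118. Without the filter Rpl11 was at -0.0025, Rpl38 at -0.018 and Rplp0 at -0.0021, and Rpl38 was at -0.0092 with limma-voom and -0.0087 with the replicate block. With libraries left out, they ranged for Rpl11 from -0.00373 to 0.0601, Rpl24 from -0.0231 to 0.185, Rpl32 from -0.081 to 0.0618, Rpl38 from -0.089 to 0.119, Rpl5 from -0.106 to 0.0315, Rpl7 from -0.109 to 0.0141, Rplp0 from -0.0606 to 0.129, Rplp1 from -0.111 to 0.0305, Rps24 from -0.012 to 0.105, Rps27l from -0.128 to 0.0155 and Rps6 from -0.0906 to 0.0485. By rank, member levels had a Spearman rho of 0.726 with CPM not divided by length and of 0.733 with division by all exon bases. Depth limits Rpl3l, Rpl10l, Rps12l1 and Rpl39l.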
